A study of Mus musculus with 4 samples.

Results

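The nuclear-encoded oxidative phosphorylation (OXPHOS) genes were examined in single-cell RNA-seq of MC38 tumors. Every row of the count matrix whose symbol begins with Nduf, Uqcr, Atp5 or Cox4 to Cox8, or is Sdha, Sdhb, Sdhc or Sdhd, was taken, and symbols containing -ps, which mark pseudogenes, were left out. The rule used names and no measured value, and found 93 of the 32285 genes in the matrix. All 93 are annotated as protein coding. They comprise 7 core, 31 accessory and 8 assembly genes of complex I, 4 genes of complex II, 8 of complex III, 18 of complex IV and 17 of complex V.

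OXPHOS takes place in the inner mitochondrial membrane. Complexes I (NADH dehydrogenase) and II (succinate dehydrogenase) pass electrons through ubiquinone to complex III and, through cytochrome c, to oxygen at complex IV (cytochrome c oxidase), and complex V (ATP synthase) uses the resulting proton gradient to make ATP. Mitochondrial DNA encodes a few subunits of complexes I, III, IV and V, and all others, like the assembly factors, come from the nucleus. Several subunits of complexes IV and V exist as paralogs, some of them restricted to tissues such as muscle or testis. Tumor cells and activated T cells are known to combine glycolysis with OXPHOS, whereas mature neutrophils are known to hold few mitochondria.

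The data came from 4 libraries, with 1 library in each group: WT and A159V tumors, each under IgG or under anti-PD1 (WT IgG, A159V IgG and their anti-PD1 counterparts). MC38 is a mouse colon adenocarcinoma line, used either as its Rac1 wild-type form or with a homozygous A159V change knocked into the endogenous Rac1 gene by CRISPR-Cas9. The study's mutant work rests on 1 clone unless stated otherwise. The cells had been implanted under the skin of C57BL/6 mice, whose stroma and immune cells carried no engineered allele in any group, and the mice had repeatedly received an antibody against PD1 or an isotype control IgG. The number of mice behind each library is not given in the sources used here. CD45+ and CD45- cells had been separated with beads and remixed before 10x Genomics 3′ libraries were made, so shares of cell types follow that mixing. With 1 library per group no difference between libraries could be tested. All intervals are 95% intervals for counting error alone, and differences between libraries have no replicate check.

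The libraries held 7430 to 9311 barcodes and between 54402632 and 125227747 UMIs, where a UMI is 1 counted transcript molecule. After removal of cells with 500 genes or fewer and of predicted doublets, 29184 cells remained in 24 clusters that were formed without the OXPHOS, ribosomal and mitochondrial genes. Pairs of libraries shared 13 to 22 barcodes. Clusters 0 and 6 were called tumor-like on 3 of the 8 tumor markers, Prl2c2, Prl2c3 and Rhox5, while Epcam and the keratins Krt8, Krt18, Krt19 and Krt7 were found in under 1% of their cells. Of these cells 818 came from WT IgG, 2653 from A159V IgG and 2018 from A159V anti-PD1, but only 4 from WT anti-PD1, so no tumor value is given for WT anti-PD1. Cluster 9, of which 1218 of 1461 cells came from WT IgG, is called unnamed. It carried the same 3 tumor markers, with Rhox5 in 98.0%, Prl2c2 in 37.2% and Prl2c3 in 17.6% of its cells. Naming used only the list with the highest score, which was not the tumor list and had 0 markers detected there. The name therefore does not mark an absence of tumor markers.

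To show what sequence lies in front of the members, RefSeq promoter windows of 300 bases (250 before and 50 after the RefSeq start, GRCm38.p6) were matched for 75 of the 93 genes. Those not matched include Atp5a1, Atp5mpl, Cox4i1, Cox4i2, Cox6a2, Cox8c, Ndufa4l2, Ndufs1 and Sdhc. Both strands were searched for the binding letters of NRF1 (a half-palindrome with 1 free base, in capitals below), ETS factors such as GABPA (CCGGAAG) and YY1, which are known regulators of respiratory genes, and for the hypoxia response core (ACGTG), which lies inside the E-box (CACGTG). The NRF1 letters were in 18 of 75 members (24%) and in 4.78% of all 27025 promoters. The ETS letters were in 18 members (24%) and 9.12% of all promoters, and the YY1 letters in 5 (6.67%) and 0.899%. The ACGTG core was in 17 members (22.7%) and 19.7% of all promoters, and the E-box in 5 (6.67%) and 7.24%. These are matches of letters and show no binding.

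6 windows are printed because the results below turn on these genes. Atp5g1 (chr11:96075582-96075881, minus strand), Atp5g2 (chr15:102670998-102671297, minus strand) and Atp5g3 (chr2:73911277-73911576, minus strand) encode the same mature c subunit of complex V and differed in their balance between libraries. Ndufaf4 (chr4:24897833-24898132, plus strand) had the largest mean tumor-to-macrophage ratio of the members measured in all 3 libraries, Ndufa8 (chr2:36049289-36049588, minus strand) the lowest ratio in T-like cells of WT anti-PD1, and Sdha (chr13:74350191-74350490, minus strand) stood on the higher side there. Each window spans the promoter and the first transcribed bases, and that of Atp5g2 lies inside the annotated gene span. Capitals mark the matches named above, read 5′ to 3′ on the gene's strand. Atp5g1 holds no NRF1 match, Atp5g2, Atp5g3, Ndufaf4 and Ndufa8 hold 1 each, and Sdha holds 3.
Atp5g1: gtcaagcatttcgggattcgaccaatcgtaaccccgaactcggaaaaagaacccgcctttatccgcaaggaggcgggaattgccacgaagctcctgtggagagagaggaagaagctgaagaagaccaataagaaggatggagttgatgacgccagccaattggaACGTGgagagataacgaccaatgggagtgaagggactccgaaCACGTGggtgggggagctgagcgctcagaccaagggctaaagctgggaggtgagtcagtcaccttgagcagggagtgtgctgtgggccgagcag
Atp5g2: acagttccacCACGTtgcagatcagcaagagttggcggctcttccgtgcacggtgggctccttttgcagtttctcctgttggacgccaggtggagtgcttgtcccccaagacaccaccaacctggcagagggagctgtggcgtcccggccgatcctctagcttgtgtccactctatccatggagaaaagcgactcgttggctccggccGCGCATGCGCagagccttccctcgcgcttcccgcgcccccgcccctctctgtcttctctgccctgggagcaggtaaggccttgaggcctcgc
Atp5g3: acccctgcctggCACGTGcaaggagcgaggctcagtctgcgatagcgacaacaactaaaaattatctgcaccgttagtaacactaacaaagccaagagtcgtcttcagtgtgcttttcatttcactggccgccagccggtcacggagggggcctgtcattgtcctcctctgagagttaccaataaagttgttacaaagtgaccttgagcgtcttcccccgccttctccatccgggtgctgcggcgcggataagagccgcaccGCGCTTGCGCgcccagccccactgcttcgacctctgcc
Ndufaf4: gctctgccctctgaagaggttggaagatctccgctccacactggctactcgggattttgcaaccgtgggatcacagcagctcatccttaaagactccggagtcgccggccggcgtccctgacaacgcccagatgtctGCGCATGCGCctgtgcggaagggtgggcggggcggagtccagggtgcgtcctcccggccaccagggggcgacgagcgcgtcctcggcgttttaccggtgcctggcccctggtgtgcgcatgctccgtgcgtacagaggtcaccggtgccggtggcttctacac
Ndufa8: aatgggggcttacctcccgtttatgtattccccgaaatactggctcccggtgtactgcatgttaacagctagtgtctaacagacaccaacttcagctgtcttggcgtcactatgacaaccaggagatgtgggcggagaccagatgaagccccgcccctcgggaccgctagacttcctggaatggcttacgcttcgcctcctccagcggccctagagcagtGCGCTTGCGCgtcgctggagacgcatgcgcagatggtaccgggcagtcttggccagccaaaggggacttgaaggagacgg
Sdha: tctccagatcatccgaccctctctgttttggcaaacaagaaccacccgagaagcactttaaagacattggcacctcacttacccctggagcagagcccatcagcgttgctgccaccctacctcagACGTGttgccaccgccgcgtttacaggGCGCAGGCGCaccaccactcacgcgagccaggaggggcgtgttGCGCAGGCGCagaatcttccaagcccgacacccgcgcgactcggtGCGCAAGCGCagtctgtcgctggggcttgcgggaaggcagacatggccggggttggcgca

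OXPHOS transcripts took a larger share of the UMIs in tumor-like cells than in any immune or stromal class (see the plot of OXPHOS shares by class). The share in tumor-like cells was 2.62% in WT IgG and, in A159V, 2.59% with IgG and 2.43% with anti-PD1. The unnamed cluster followed with 2.42%, 2.24% and 2.02%. NK-like cells had 1.67% with IgG and 1.11% with anti-PD1 in WT, and 1.63% with IgG and 1.43% with anti-PD1 in A159V, and T-like cells had 1.47%, 0.944%, 1.43% and 1.27% in the same order. Stromal-like cells lay between 1.14% and 1.47%, dendritic-like cells between 1.33% and 1.44%, and macrophage-like cells between 1.15% and 1.21%. Neutrophil-like cells had the lowest shares, 0.448%, 0.35%, 0.530% and 0.353%. The order of tumor-like, then NK-like, then T-like cells held in the 3 libraries with all of them, whereas stromal-like and dendritic-like cells lay close to T-like cells. In WT anti-PD1, unlike the other libraries, T-like and NK-like cells lay below macrophage-like cells in these shares of summed UMIs. By the median cell of that library they did not, with 0.949% in NK-like, 0.847% in T-like and 0.832% in macrophage-like cells.

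**Figure D1:**
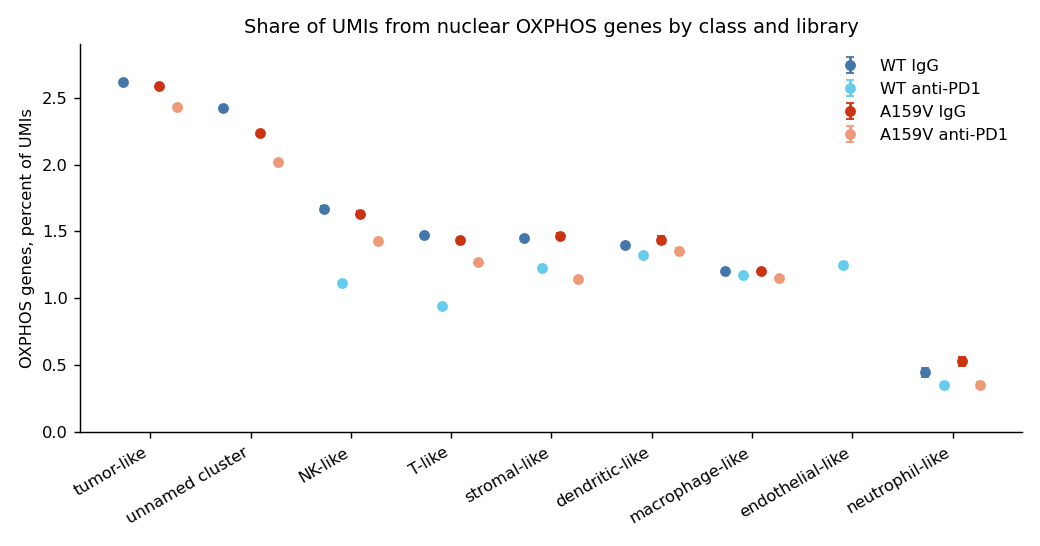
Share of UMIs from the 93 nuclear OXPHOS genes (percent of UMIs, y axis) in each cell class (x axis) and library (colors), with 95% counting intervals. Tumor-like cells sit between 2.43% and 2.62%, neutrophil-like cells at 0.530% or below, and T-like cells of WT anti-PD1 at 0.944%.

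Depth differed between the classes. Tumor-like cells had median depths of 31407 to 42802 UMIs and macrophage-like cells of 2004.5 to 3675. When each cell was thinned to 1500 UMIs and shallower cells were left out, the median number of OXPHOS UMIs per cell was 38, 38 and 36 in tumor-like cells of WT IgG, A159V IgG and A159V anti-PD1. It was 17, 14, 18 and 16 in macrophage-like cells of the WT (IgG, anti-PD1) and then the A159V (IgG, anti-PD1) libraries, and 5 in neutrophil-like cells of both anti-PD1 libraries. NK-like and T-like cells of WT anti-PD1 had medians of 15 and 13. Between 9 and 20 tumor-like cells and between 408 and 851 macrophage-like cells per library fell below that depth. Unthinned, a median of 81 to 83 members per tumor-like cell and 17 to 23 per macrophage-like cell had a UMI. Tumor-like cells were also the class with most cells carrying a UMI of the cycling genes Mki67 or Top2a (86.2% to 91.9%, against 6.52% to 11.4% of macrophage-like cells) and with most ribosomal protein UMIs (20.6% to 23.8%, against 6.15% to 7.88%). The part of cycling and of ribosomal content in the class differences was not tested.

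Most members were higher in tumor-like than in macrophage-like cells of the same library. Levels are counts per 1000000 UMIs (CPM) of the class in that library. The 3′ assay is designed to count 1 end per transcript, and levels of different genes were compared without division by length. Intronic reads were counted too, and their part in the levels was not tested. A ratio is log2 of the 2 levels after adding 1 CPM, members needed 20 CPM on 1 side, and 1.5-fold was used as a mark of size, not as a test. The summed OXPHOS level was higher by 1.12 (1.11 to 1.13) on the log2 scale in WT IgG, by 1.10 (1.09 to 1.11) in A159V IgG and by 1.08 (1.07 to 1.08) in A159V anti-PD1. In WT IgG, 66 of 84 members lay past 1.5-fold higher, beside 42.9% of all genes, and none lay past it lower, beside 35.9%. In A159V IgG the counts were 66 of 85 higher (43.7% of all genes) and 1 lower (34.9%), and in A159V anti-PD1 65 higher (44.8%) and 1 lower (33.3%). The median member stood at 1.05, 1.08 and 1.11 and the median gene at 0.23, 0.27 and 0.34.

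The complexes did not share this difference evenly. Members are grouped by their symbols, so Ndufa4, now assigned to complex IV, counts in all sums here as an accessory subunit of complex I. Assembly factors of complex I had the largest summed ratio, 1.68, 1.60 and 1.70 in WT IgG, A159V IgG and A159V anti-PD1, and complex III followed with 1.37, 1.34 and 1.25. The complex I core stood at 1.15, 1.18 and 1.2, its accessory subunits at 1.17, 1.11 and 1.12, complex V at 1.14, 1.11 and 1.07, and complex IV at 0.94, 1.02 and 0.95. Complex II, the only one wholly encoded in the nucleus and also an enzyme of the TCA cycle, had the smallest, 0.51, 0.51 and 0.70. Its intervals (0.44 to 0.58 in WT IgG) did not overlap those of any other complex in that library.

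Single members span a wide range around these sums. Ndufaf4, a complex I assembly factor, was at 81.7, 107 and 106 CPM in tumor-like cells of WT IgG, A159V IgG and A159V anti-PD1 and at 8.44, 11.3 and 10.6 CPM in macrophage-like cells of the same libraries, a log2 ratio of 3.13, 3.13 and 3.20. T-like cells (30.6, 38.0 and 29.4 CPM) and NK-like cells (32.1, 36.9 and 30.7 CPM) of those libraries lay between. Cox6a2, under the minimum in WT IgG, had ratios of 3.33 and 3.29 in A159V IgG and A159V anti-PD1, and it met the minimum through the tumor-like side alone, so its place at the top is in part set by that minimum. Ndufaf5 and Ndufaf2, also assembly factors, had mean ratios of 2.27 and 2.26 over the 3 libraries. Atp5g1 was at 992, 985 and 855 CPM in tumor-like and 203, 209 and 175 CPM in macrophage-like cells, with ratios of 2.28, 2.23 and 2.28.

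At the other end, Ndufa3, an accessory subunit of complex I, was lower in tumor-like cells (87.2, 63.1 and 60.8 CPM) than in macrophage-like cells (107.5, 100.2 and 96.4 CPM). Ndufa6 was at 119, 107 and 110.0 CPM against 124, 143 and 132 CPM. Ndufs4, whose loss in mice is known to impair complex I, stood on either side, with 139 against 103 CPM in WT IgG but 79.5 against 114 and 75 against 105 CPM in the A159V libraries. Ndufaf3, unlike the other named assembly factors, stood at 18.1 against 20.6 CPM, 21.7 against 18.6 and 20.5 against 18.0.

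**Figure D2:**
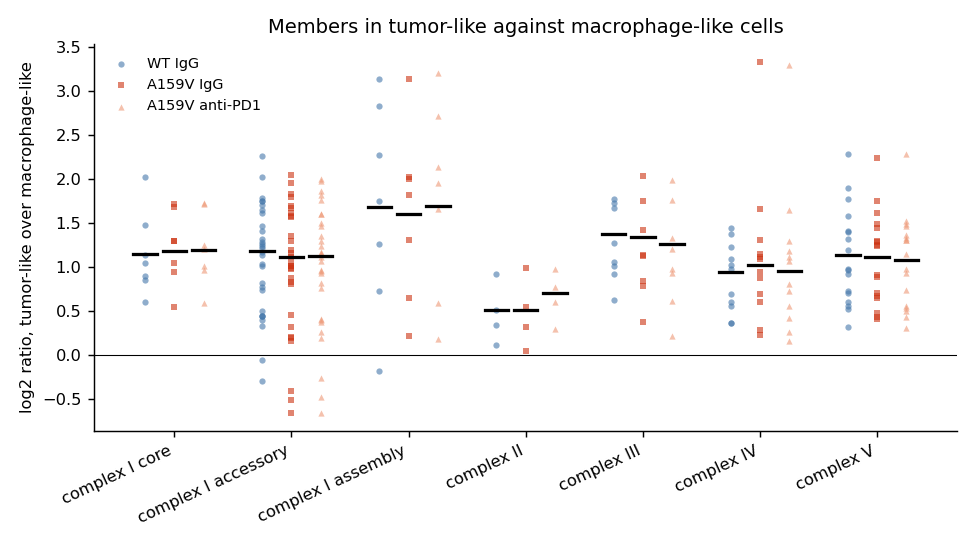
Log2 ratio of each member between tumor-like and macrophage-like cells of the same library (y axis), grouped by complex (x axis) and colored by library, for members of at least 20 CPM in 1 class. Black bars are the ratios of the summed levels, from 0.51 for complex II in the IgG libraries to 1.70 for assembly factors. Most points lie above 0, with Ndufaf4 at 3.13 to 3.20 and Cox6a2 of complex IV at 3.33 and 3.29 in the A159V libraries.

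Of the fixed examples, the electron entry subunits of complex I showed these levels in tumor-like and macrophage-like cells of WT IgG. Ndufv1, the NADH-binding subunit, was at 113 and 27.0 CPM and Ndufs1, which carries iron-sulfur clusters, at 43.7 and 22.9 CPM. Sdha, the flavin-carrying subunit of complex II, was at 57.8 and 45.5 CPM, Sdhb, its iron-sulfur subunit, at 112 and 78.2 CPM, and the membrane anchors Sdhc and Sdhd at 57.4 and 53.0 CPM and at 97.7 and 51.3 CPM. All of these were higher in tumor-like cells, and Sdhc least so.

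In complex III, the core subunit Uqcrc1 was at 110.1 and 57.8 CPM, the Rieske protein Uqcrfs1 at 123 and 58.9 CPM and the hinge subunit Uqcrh at 383 and 249 CPM. In complex IV, Cox8a had the highest tumor level of the fixed examples (1233 CPM, against 529 CPM in macrophage-like cells). Cox4i1, the common form of subunit 4, was at 1051 and 493 CPM and Cox5a at 838 and 308 CPM. In complex V, the catalytic β subunit Atp5b differed more (681 and 199 CPM) than the α subunit Atp5a1 (245 and 166 CPM), although both occur in equal number in the enzyme.

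Whether the A159V change in the tumor cells went with other OXPHOS levels was read from the IgG libraries. The summed levels of tumor-like, macrophage-like and T-like cells were close, while macrophage-like and T-like clusters stood on both sides. The ratio of A159V IgG to WT IgG was -0.015 (-0.019 to -0.012) in tumor-like cells, -0.0019 (-0.015 to 0.011) in macrophage-like cells and -0.037 (-0.059 to -0.015) in T-like cells. The unnamed cluster, which carried tumor markers too, stood at -0.12 (-0.13 to -0.11). Neutrophil-like cells stood at 0.24 (0.10 to 0.38), over 104 and 96 cells. Dendritic-like, NK-like and stromal-like cells stood at 0.045, -0.031 and 0.020. In tumor-like, macrophage-like and T-like cells the sign turned under 5 of 11, 4 of 9 and 2 of 9 other settings. No direction is drawn for them. By cluster, macrophage-like cells ran from -0.19 (-0.21 to -0.16) in cluster 3 to 0.21 (0.18 to 0.25) in cluster 2. Macrophage-like clusters 1, 5, 7 and 13 stood at 0.12, 0.0066, 0.10 and -0.096. T-like clusters 4, 10 and 14 stood at 0.086, -0.049 and -0.068. In tumor-like cells 1 of 85 members lay past 1.5-fold higher (4.13% of all genes) and 2 past it lower (3.62%). In macrophage-like cells none of 79 did in either direction (1.39% and 2.29%), and in T-like cells none of 81 did higher (4.5%) and 1 lower (1.90%). That was Ndufaf3 at 23.3 CPM in WT IgG and 15 CPM in A159V IgG, from 84 and 26 UMIs, with a ratio of -0.61 (-1.21 to -0.011), and it met the minimum through WT IgG alone.

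The largest single differences in tumor-like cells were in Cox6a2, Ndufaf2 and Ndufs4. Cox6a2, the muscle-type paralog of Cox6a1 in complex IV, was at 17.4 CPM (524 UMIs) in WT IgG, 51.8 CPM (4452 UMIs) in A159V IgG and 28.7 CPM (2555 UMIs) in A159V anti-PD1. It met the minimum of 20 CPM only through A159V IgG, where it was high, and is given as a description. The ratio of the IgG libraries was 1.52 (1.40 to 1.65), and that of A159V anti-PD1 to A159V IgG was -0.83 (-0.90 to -0.76). Ndufaf2 was at 110.1 CPM in WT IgG and at 52.7 and 51.0 CPM in the A159V libraries, a ratio of -1.05 (-1.11 to -0.98) between the IgG libraries. Ndufs4 was at 139, 79.5 and 75 CPM in the same order, with -0.80 (-0.86 to -0.75). For both genes the 2 A159V libraries lay together and apart from WT IgG, with no replicate of WT to show its spread. Both lie on chromosome 13, Ndufaf2 at 108002715 to 108158623 and Ndufs4 at 114287795 to 114388258. Uqcrfs1, Uqcrb, Ndufs6, Sdha and Cox7c lie on this chromosome too and did not pass 1.5-fold. The part of location in these ratios was not tested. In the unnamed cluster, Ndufaf2 (98.2 and 56.4 CPM), Ndufs4 (140.4 and 88.9 CPM) and Cox6a2 (11.0 and 22.9 CPM) stood in the same order between WT IgG and A159V IgG.

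Next in size in tumor-like cells came Uqcr11, a small complex III subunit, at 483 and 333 CPM (-0.53, -0.56 to -0.51), and Ndufa3 at 87.2 and 63.1 CPM (-0.46, -0.53 to -0.40). On the higher side were Ndufab1, the mitochondrial acyl carrier protein that is also a complex I subunit, at 250 and 351 CPM (0.49), Ndufa8 at 305 and 413 CPM (0.43) and Ndufs1 at 43.7 and 59.2 CPM (0.43). All of these stayed under 1.5-fold. In macrophage-like cells the outermost were Ndufa4 at 222 and 309 CPM (0.48, 0.39 to 0.56) and Atp5k, the e subunit of complex V, at 158 and 132 CPM (-0.26, -0.38 to -0.14).

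By complex, tumor-like cells of A159V IgG over WT IgG showed summed ratios from -0.12 for complex III to 0.15 for complex II, with the complex I core at 0.043 and complex V at -0.066. Other mitochondrial lists give a setting for these values. The 13 genes of mitochondrial DNA were at 4.05% of UMIs in WT IgG and 3.01% in A159V IgG, a summed ratio of -0.43, with 3 of 13 past 1.5-fold lower. The mitochondrial ribosome stood at 0.18, with 1 of 77 past the fold in each direction, and the TCA cycle also at 0.18, with none of 13 past it. Over all genes of these cells 4.13% lay past it higher and 3.62% lower.

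Under anti-PD1 in WT tumors, the OXPHOS genes of T-like and NK-like cells were lower than in WT IgG, with a smaller difference in macrophage-like cells. The ratio of WT anti-PD1 to WT IgG was -0.64 (-0.66 to -0.62) in T-like cells and -0.58 (-0.61 to -0.56) in NK-like cells, against -0.24 (-0.26 to -0.22) in stromal-like and -0.040 (-0.052 to -0.028) in macrophage-like cells. Neutrophil-like cells stood at -0.36 (-0.47 to -0.24), over 561 and 96 cells, and dendritic-like cells at -0.074 (-0.099 to -0.049). The neutrophil-like cells of these libraries were of different make-up. Cluster 16 held 554 of them in WT anti-PD1 and 11 in WT IgG, and cluster 17 held 7 and 85. No neutrophil-like cluster was therefore compared within WT. In T-like cells 52 of 81 members lay past 1.5-fold lower, beside 15.2% of all genes, and 1 lay past it higher, beside 22.0%. In NK-like cells 44 of 81 lay past it lower (14.7%) and 1 higher (35.4%). The median member stood at -0.75 in T-like and -0.62 in NK-like cells, while the median gene stood at 0.23 and 0.33. In both classes 78 of 81 members lay below the median gene.

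The lower levels in T-like cells ran through complexes I, III, IV and V, while the interval of complex II spanned 0. Summed ratios were -0.50 for the complex I core (5 of 7 past the fold lower), -0.76 for its accessory subunits (20 of 30), -0.51 for assembly factors (3 of 4), -0.46 for complex III (4 of 8), -0.72 for complex IV (8 of 11) and -0.59 for complex V (11 of 17). Complex II stood at -0.11 (-0.24 to 0.021), with 1 of 4 past it, and the share of all genes past it lower was 15.2%. In NK-like cells the order was alike at its ends, with -0.67 for the accessory subunits, -0.68 for complex IV and -0.059 (-0.27 to 0.15) for complex II.

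Ndufa8, an accessory subunit of complex I, was at 112 CPM with IgG and 34.6 with anti-PD1 in T-like cells of WT, and 124 with IgG and 87.9 with anti-PD1 in A159V. Its ratio within WT was -1.67 (-1.93 to -1.42), and WT anti-PD1 was the lowest of the 4 libraries. Atp5g1 was at 201, 70.8, 216 and 163 CPM in the same order (-1.49 within WT, -1.68 to -1.31). Ndufa12 was at 78.6, 28.7, 84.5 and 79.2 CPM (-1.42, -1.71 to -1.14). Cox5b, a nuclear subunit of complex IV, was at 252, 99.3, 247 and 210.1 CPM (-1.34, -1.49 to -1.18). In each of these genes WT anti-PD1 was the one library set apart, and A159V anti-PD1 lay nearer to the IgG libraries.

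A few members stood on the other side in T-like cells. Ndufs1 was at 34.7, 52.6, 34.5 and 44.3 CPM in the WT (IgG, anti-PD1) and then the A159V (IgG, anti-PD1) libraries, a ratio of 0.59 (0.29 to 0.89) within WT and of 0.35 (-0.073 to 0.77) within A159V. Sdha was at 73.3, 107.3, 85.1 and 80.2 CPM, a ratio of 0.54 (0.33 to 0.75) within WT. Its partner Sdhb was at 83.6, 34.0, 77.6 and 64.4 CPM (-1.27, -1.54 to -1.01), so the 2 catalytic subunits of complex II stood in opposite directions. In NK-like cells Sdha was at 59.9 and 103.5 CPM in WT IgG and WT anti-PD1 (0.78, 0.39 to 1.17) and Sdhb at 87.7 and 43.3 CPM (-1.0, -1.42 to -0.59). Cox6a1 (0.25) and Sdhc (0.13, -0.21 to 0.47) were the other highest named members in T-like cells.

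**Figure D3:**
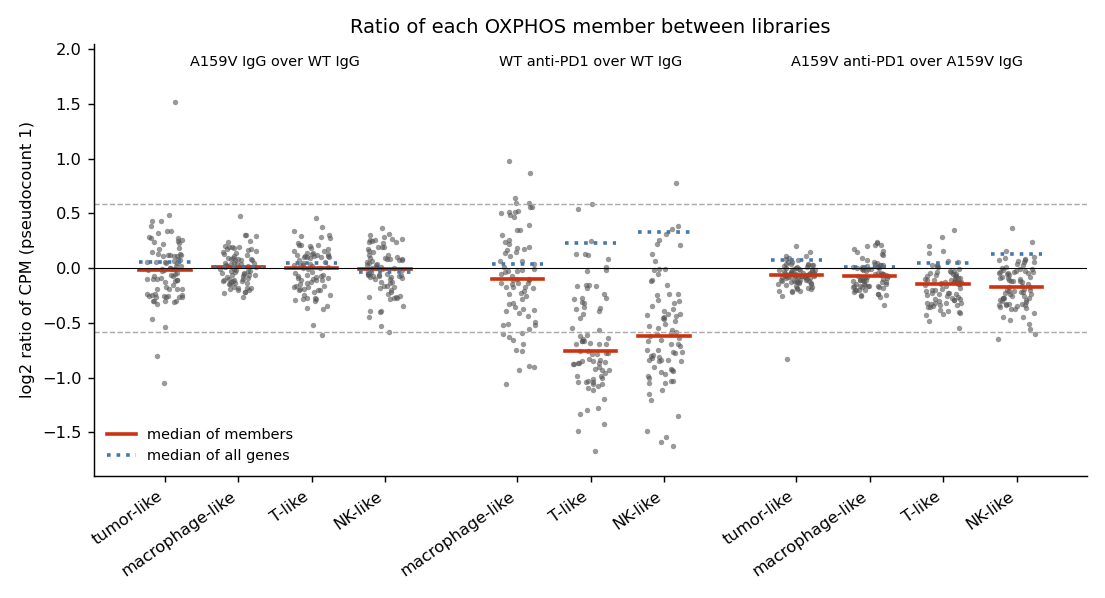
Log2 ratio of CPM (y axis, 1 CPM added) of every OXPHOS member of at least 20 CPM, in the comparisons between libraries within tumor-like, macrophage-like, T-like and NK-like cells (x axis), with the medians of members (red) and of all genes (dotted). Members cluster at 0 for A159V IgG over WT IgG, and the T-like cells of WT anti-PD1 over WT IgG have a median of -0.75 with Ndufa8 lowest at -1.67.

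The same direction appeared in each T-like cluster. The summed ratio within WT was -0.56 in cluster 4, led by genes such as Cd40lg, -0.65 in cluster 10, led by Cd8b1 and Cd8a, and -0.76 in cluster 14, led by genes that include Foxp3. Within A159V, where the ratio over all T-like cells was -0.17 (-0.20 to -0.15), it was -0.36, -0.14 and -0.074 in these clusters. Over all T-like cells of A159V, none of 80 members lay past 1.5-fold in either direction, beside 3.35% of all genes higher and 3.90% lower. NK-like cells of A159V stood at -0.19 (-0.22 to -0.17), with 2 of 81 past it lower (3.79%) and none higher (8.67%). Whether the 2 tumor genotypes differ in this response could not be tested with 1 library each.

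Other features of these cells moved with the OXPHOS values. In T-like cells, cytosolic ribosomal protein genes took 17.4% of UMIs with IgG and 10.0% with anti-PD1 in WT, and 16.1% with IgG and 13.2% with anti-PD1 in A159V, the order of the OXPHOS shares. Within WT, 61 of 82 of them lay past 1.5-fold lower, as did 41 of 64 genes of the mitochondrial ribosome, 2 of 12 genes of the TCA cycle and 1 of 13 genes of mitochondrial DNA, with 1 gene past it higher in each of the 4 lists. Over all genes of these cells 15.2% lay past it lower and 22.0% higher. The summed ratio was -0.80 for the cytosolic and -0.70 for the mitochondrial ribosome, 0.043 (-0.031 to 0.12) for the TCA cycle and -0.048 for mitochondrial DNA. Cells with a Mki67 or Top2a UMI made up 22.8%, 11.4%, 23.0% and 18.8% of T-like cells, and without them the OXPHOS ratio within WT was -0.54. The summed level of Ptprc, which T-like and NK-like cells express themselves, and of the stromal genes Col1a1, Col1a2, Col3a1 and Dcn was 2018, 3859, 2004 and 2399.7 CPM in T-like and 2196, 5004, 1695 and 2396 CPM in NK-like cells of these libraries. The tumor marker list Prl2c2, Prl2c3, Rhox5, Krt8 and Krt18 summed to 16.1, 1.02, 41.4 and 46.7 CPM in T-like cells. Scaled without ribosomal and mitochondrial UMIs, the OXPHOS ratio of T-like cells within WT was -0.77. The part of these features in the OXPHOS difference was not tested.

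Transcript length also moved with the ratio in this pair of libraries. Among all genes of T-like cells, the 730 with a median transcript of up to 1000 bases had a median ratio of -0.66 and 54.8% of them lay past 1.5-fold lower, against 0.28 and 10.6% of the 6260 longer genes. OXPHOS transcripts are short, with a median of 745 bases over the 81 members. Of members of up to 1000 bases, 36 of 53 (67.9%) lay past the fold lower, with a median of -0.76, and of longer ones 16 of 28 (57.1%), with a median of -0.73. In NK-like cells 49.9% of short and 10.5% of longer genes lay past the fold lower, beside 29 of 53 and 15 of 28 members. The part of transcript length in the OXPHOS difference was not tested. Spearman's rho of length and ratio over the 81 members was -0.050, and 0.45 over 6990 genes, where genes share the same libraries and are not independent.

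In macrophage-like cells the summed ratio of -0.040 within WT depended on how cells were weighed, being -0.20 with every cell and -0.14 with every cluster weighing the same, and the median share per cell was 1.01% in WT IgG and 0.832% in WT anti-PD1. Single members stood further apart. Of 79 members 11 lay past 1.5-fold lower, beside 15.5% of all genes, and 5 past it higher, beside 18.4%, so the shares (13.9% and 6.33%) were no larger than the background. The 5 on the higher side were Atp5g3, Sdha, Atp5mpl, Atp5a1 and Atp5g2, of which 4 belong to complex V, as does Atp5g1, the lowest member. Atp5g3 was at 148 CPM with IgG and 294 with anti-PD1 in WT, and 147 with IgG and 171 with anti-PD1 in A159V, a ratio within WT of 0.98 (0.89 to 1.07). Sdha was at 45.5, 84.1, 56.2 and 49.8 CPM (0.87, 0.71 to 1.04), Atp5mpl, a small membrane subunit, at 155, 243, 134 and 129 CPM (0.64) and Atp5a1 at 166, 253, 147 and 172 CPM (0.60). In these 4 genes WT anti-PD1 was the highest of the 4 libraries.

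On the lower side in macrophage-like cells, Atp5g1 was at 203, 96.7, 209 and 175 CPM in the WT (IgG, anti-PD1) and then the A159V (IgG, anti-PD1) libraries (-1.06 within WT, -1.18 to -0.95). Ndufa4 was at 222, 116, 309 and 275 CPM (-0.93, -1.03 to -0.82). Ndufs4 was at 103, 54.3, 114 and 105 CPM (-0.91, -1.06 to -0.75), and Ndufaf3, which met the minimum through WT IgG alone, at 20.6, 10.6, 18.6 and 18.0 CPM (-0.89, -1.21 to -0.57). Again the library set apart was WT anti-PD1. Its macrophage-like cells were of another make-up, since 1425 of 1942 were in cluster 5, led by Retnla, Mrc1 and Arg1, which held 100 of 3021 in WT IgG. By cluster, the summed ratio within WT ran from -0.69 in cluster 1 (53 cells in WT anti-PD1) to 0.12 in cluster 7, and it was -0.045 (-0.083 to -0.0066) in cluster 5.

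The balance of the 3 c-subunit genes of complex V showed the contrast within 1 protein. Atp5g1 made up 36.3% (35% to 37.6%) of their UMIs with IgG and 13.7% (12.9% to 14.6%) with anti-PD1 in macrophage-like cells of WT, and 36.2% (34.6% to 37.7%) with IgG and 31.5% (30.3% to 32.6%) with anti-PD1 in A159V. Atp5g3 made up 26.5%, 41.7%, 25.6% and 30.7%, and Atp5g2 37.2%, 44.6%, 38.3% and 37.8%. The IgG libraries of both genotypes nearly coincided, and both anti-PD1 libraries had less Atp5g1 and more Atp5g3, with a larger step in WT. All 6 macrophage-like clusters of WT anti-PD1 had Atp5g1 shares of 13.1% to 18.2%, below the 26.4% to 40.1% of the same clusters in WT IgG, so the difference was present within clusters. The smaller step in A159V was less even, with Atp5g1 lower under anti-PD1 in 4 of the clusters. Its intervals lay apart only in cluster 3, at 41.3% (38.3% to 44.4%) and 31.7% (29.3% to 34.3%). It went from 25.4% (18.3% to 33.6%) to 31.6% (28.0% to 35.3%) in cluster 5 and from 32.3% to 33.2% in cluster 13, with overlapping intervals. The Atp5g3 share was higher with anti-PD1 in every one of these clusters of A159V.

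T-like cells also had their lowest Atp5g1 share in WT anti-PD1, with 22.4% (21.0% to 23.9%), 12.7% (11.4% to 14.0%), 23.1% (21.1% to 25.2%) and 21.7% (20.1% to 23.4%), where A159V anti-PD1 overlapped the IgG libraries. NK-like cells had 25.7%, 13.0%, 23.1% and 23.0%, and stromal-like cells 34.0%, 19.3%, 36.4% and 31.1%. Tumor-like cells held the largest Atp5g1 share, 49.4% in WT IgG against 47.3% and 46.2% in the A159V libraries, and a smaller Atp5g3 share than macrophage-, T-, NK- and stromal-like cells of the same library, 19.6%, 23.8% and 25.7%. The printed windows of the 3 genes differ in that Atp5g1 alone has no NRF1 match and alone holds the ACGTG core at 2 separate places. Reads that fit several of these near-identical copies or their pseudogenes are not counted, so shares between paralogs hold for the counted part only. The tumor markers Prl2c2, Prl2c3, Rhox5, Krt8 and Krt18 summed to 31.9, 2.60, 69.5 and 50.4 CPM in macrophage-like cells against 1340 to 2143 CPM in tumor-like cells. WT anti-PD1, with the lowest level of these markers, also had the lowest Atp5g1 share. Their part in the Atp5g balance was not tested.

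**Figure D4:**
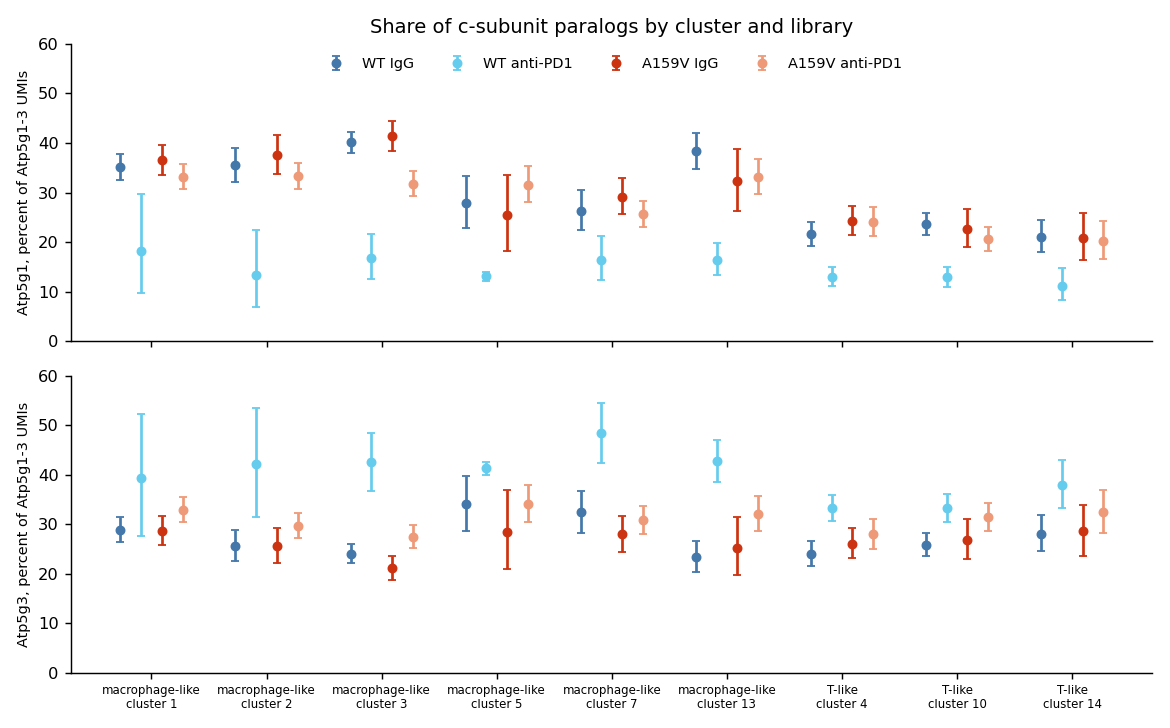
Atp5g1 (top) and Atp5g3 (bottom) as percent of the UMIs of Atp5g1, Atp5g2 and Atp5g3 (y axis) in each macrophage-like and T-like cluster (x axis) and library (colors), with 95% counting intervals. In every macrophage-like cluster WT anti-PD1 has the lowest Atp5g1 share, 13.1% to 18.2%, while the IgG libraries and A159V anti-PD1 lie higher.

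In A159V tumors anti-PD1 went with small differences in sum. The ratio of A159V anti-PD1 to A159V IgG was -0.092 (-0.095 to -0.089) in tumor-like cells and -0.064 (-0.077 to -0.051) in macrophage-like cells. Of 85 members in tumor-like cells, 1 (Cox6a2) lay past 1.5-fold lower, beside 0.412% of all genes, and none higher, beside 0.565%. The median member stood at -0.061 and the median gene at 0.079, and 79 of 85 members lay below the median gene. Cox8a (1402 and 1173 CPM, -0.26) and Ndufa4 (1272 and 1096 CPM, -0.22) followed on the lower side, and Ndufaf5 (28.0 and 32.4 CPM, 0.20) and Sdhc (62.8 and 69.6 CPM, 0.15) were outermost on the higher side. The genes of mitochondrial DNA stood the other way, at 3.01% and 3.75% of UMIs, a summed ratio of 0.32 with 1 of 13 past the fold higher. In macrophage-like cells no member of 78 lay past the fold, beside 2.78% of all genes higher and 1.87% lower.

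Stromal-like and neutrophil-like cells of A159V had larger steps. The stromal ratio was -0.36 (-0.39 to -0.34), with 11 of 82 members past 1.5-fold lower (11.1% of all genes) and 1 higher (9.97%), over 161 and 184 cells. The make-up of the class differed too, with cluster 15 holding 30 and 80 of these cells. Within cluster 11 the ratio was -0.28 (-0.31 to -0.24), and in cluster 15 the OXPHOS share was 1.58% with IgG and 1.30% with anti-PD1. The neutrophil ratio was -0.59 (-0.71 to -0.46), with 36 of 72 past it lower (32.8%) and 1 higher (16.7%), over 217 and 104 cells with 5.33 and 9.37 OXPHOS UMIs each. At that depth single members of neutrophil-like cells are not given.

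Tissue-restricted paralogs were read as shares of their pair, which sets aside the total. Cox6a2 made up 4.76% (4.37% to 5.17%) of Cox6a1 and Cox6a2 UMIs in tumor-like cells of WT IgG, 15.1% (14.6% to 15.5%) in A159V IgG and 8.63% (8.31% to 8.96%) in A159V anti-PD1. A UMI was found in 24.0%, 51.9% and 41.4% of those cells at median depths of 36743.5, 31407 and 42802. Among tumor-like clusters, Cox6a2 led cluster 6 although it took no part in the clustering, with 20.5, 69.7 and 47.3 CPM there and 16.8, 40.2 and 24.0 CPM in cluster 0. The step between WT IgG and A159V IgG was present in both clusters. Cluster 6 over cluster 0 gave the median member a ratio of 0.046, 0.019 and 0.018, and Cox6a2 was the only member of 85 past 1.5-fold higher in the A159V libraries, beside 0.202% of all genes with IgG and 0.379% with anti-PD1. None lay past it higher in WT IgG (0.0631%), and none lay past it lower in any of the 3 libraries (4.43%, 3.16% and 2.86%).

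Outside tumor-like cells and the unnamed cluster, Cox6a2 was concentrated in 1 small group. Cluster 21, led by Siglech and with 73 cells, held 212 of the 224 Cox6a2 UMIs of dendritic-like cells, and 50 of its cells had one. There it made up 86.8% of the pair with IgG (10 cells) and 66.7% with anti-PD1 (5 cells) in WT, and 77.0% with IgG (34 cells) and 82.2% with anti-PD1 (24 cells) in A159V. The other dendritic-like clusters held 10 UMIs in 1059 cells and 2 UMIs in 288 cells. T-like cells had 0 Cox6a2 UMIs among 362, 586, 195 and 336 of the pair, which allows shares of up to 0.829%, 0.512%, 1.54% and 0.893%. Macrophage-like cells had a UMI in 0.555% to 0.907% of cells, and the part of free RNA in this was not tested.

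Ndufa4l2, a paralog of Ndufa4 known to be induced by hypoxia, marked the stroma. In stromal-like cells it made up 41.3% (38.9% to 43.7%) of the pair with IgG and 32.5% with anti-PD1 in WT, and 29.5% with IgG and 9.66% with anti-PD1 in A159V, and its level was 325, 118, 233 and 45.4 CPM. The 2 stromal clusters differed, with 451, 137, 372 and 64.4 CPM in cluster 15 (the last from 26 UMIs in 30 cells), whose leading genes include Tnc and Acta2, and 212, 100.1, 66.8 and 40.5 CPM in cluster 11, led by Clec3b. In 32 pericyte-like cells of WT anti-PD1 it made up 92.1% of the pair, with a UMI in 26 cells. Tumor-like cells (0.13% to 0.39% of the pair) and macrophage-like cells (0.524% to 2.01%) had little, and 0 of 729 UMIs of the pair in T-like cells of A159V IgG allow up to 0.412%.

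**Figure D5:**
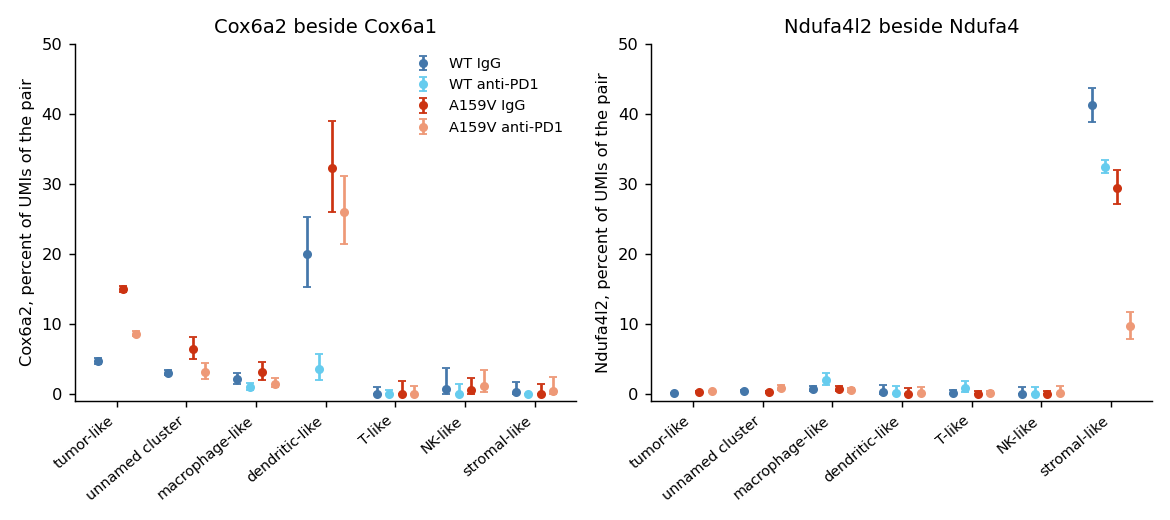
Cox6a2 (left) and Ndufa4l2 (right) as percent of the UMIs of their pair (y axis) by class (x axis) and library (colors), with 95% counting intervals. Cox6a2 is seen in tumor-like cells, 4.76% to 15.1%, and dendritic-like cells, and Ndufa4l2 in stromal-like cells, 9.66% to 41.3%.

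The remaining restricted paralogs were near the limit of detection. Cox4i2, a lung-type and hypoxia-linked paralog, made up 3.20% (2.06% to 4.72%) of its pair in stromal-like cells of A159V IgG and 0.044% to 0.17% in tumor-like cells. Cox7a1, of heart and muscle, made up 1.69% to 2.12% of its pair in tumor-like cells. Cox7b2, of testis, had 74 UMIs in tumor-like cells of WT IgG against 29 and 25 in the A159V libraries, and 169 in the unnamed cluster of WT IgG. Cox6b2, also of testis, reached 3.45% (2.22% to 5.09%) of its pair in dendritic-like and 1.95% in stromal-like cells of WT anti-PD1. Cox8b and Cox8c had 0 UMIs in all analyzed cells, and Uqcrhl is not in the matrix. Cox7a2l, which takes part in assembling respiratory supercomplexes, was by contrast broadly present, at 131 to 142 CPM in tumor-like, 88.4 to 123 CPM in macrophage-like and 157 to 169 CPM in T-like cells, with 157 and 158 CPM in T-like cells of WT IgG and WT anti-PD1.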

How the data were processed

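Gene counts per cell barcode from 4 single-cell RNA-seq libraries were analyzed, as deposited by the authors. Per the file headers they were made with Cell Ranger 7.2.0, whereas the submitters' processing notes name version 5.0.1, on the mm10 genome with intronic reads included. Reads matching several genes are not counted. The authors' later correction of free RNA and removal of doublets are not part of these counts.

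Cells with more than 500 genes were kept. Predicted doublets, scored against simulated ones (2 per cell), were removed at 0.8% per 1000 cells. Cells were clustered without the OXPHOS, ribosomal and mitochondrial genes (2000 variable genes, 20 components, 20 neighbors, Leiden resolution 1, scanpy 1.11.5, leidenalg 0.10.2). Clusters were named by the marker list with the highest mean score, which needed at least 3 detected markers. UMIs were summed per class and library. Class profiles of at least 50 cells were compared, and levels from fewer cells are printed with their cell number. Per library, 432 to 590 cells fell under the gene minimum and 374 to 631 were removed as doublets. Libraries held between 54402632 and 125227747 UMIs. Intervals (95%) are exact for levels and shares and by the delta method for ratios, with no allowance for differences between animals. Where no UMI was found, the limit is the share that 3 counts would give. CPM are UMIs of a gene divided by all UMIs of the profile, times 1000000. No replicates exist, so nothing was tested, and scripts were checked on simulated data.

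Members named in the text are the 4 highest and 4 lowest ratios in each comparison of tumor-, macrophage- or T-like cells, the 4 at each end of the mean tumor-to-macrophage ratio, examples by role and the restricted paralogs. Of these the text gives the values that differ most, and some others were named after their values were seen. The values of 1 example by role are not reported here. Members and lists were chosen with earlier results of these data known. Alternatives were other gene minimums, kept doublets, resolution 0.4, a marker gate, other scalings, equal weights, cells without Mki67 or Top2a UMIs, minimums of 5 and 50 CPM and 5 CPM added. Transcript lengths and gene spans came from GENCODE vM21.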

Additional observations from a re-analysis of the deposited data

How the results depend on the processing

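No paired analysis was possible because each group holds 1 library, and for the same reason no library could be left out. All values are log2 ratios of the summed OXPHOS level and causes of the shifts were not tested. For A159V IgG over WT IgG the sign turned under 5 of 11 settings in tumor-like, 4 of 9 in macrophage-like and 2 of 9 in T-like cells, and the other 8 sums kept their sign under every setting run. The tumor-like value of -0.015 was 0.040 with more than 1000 genes per cell, 0.038 with a marker gate, -0.066 without ribosomal and mitochondrial UMIs, -0.076 with median-of-ratios scaling, 0.013 with every cell weighing the same, 0.087 without Mki67 or Top2a cells and -0.0067 without cells of stray UMIs. In the same comparison, macrophage-like cells (-0.0019) gave 0.046 with more than 1000 genes, -0.016 with doublets kept, -0.067 with the gate, 0.076 with equal cells, 0.020 without cycling cells and 0.022 with equal clusters. T-like cells (-0.037) gave 0.046 with more than 1000 genes, -0.066 and -0.080 under the 2 scalings and 0.0028 with equal clusters.

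For WT anti-PD1 over WT IgG, macrophage-like cells (-0.040) gave -0.058 with doublets, -0.085 with the gate, -0.064 and -0.079 under the 2 scalings, -0.20 with equal cells and -0.14 with equal clusters. T-like cells (-0.64) gave -0.67 with doublets, -0.77 and -0.87 under the scalings, -0.56 with equal cells and -0.54 without cycling cells. Within A159V, anti-PD1 over IgG, tumor-like cells (-0.092) gave -0.11 and -0.17 under the scalings, -0.11 with equal cells, -0.083 without cycling cells and -0.11 without stray UMIs. Macrophage-like cells (-0.064) gave -0.098 with more than 1000 genes, -0.022 with the gate, -0.14 with equal cells and -0.085 without cycling cells. T-like cells (-0.17) gave -0.23 with more than 1000 genes, -0.12 with doublets, -0.22 and -0.22 under the scalings, -0.21 with equal cells and -0.21 with equal clusters.

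Tumor-like over macrophage-like cells in WT IgG, A159V IgG and A159V anti-PD1 gave 0.99, 0.99 and 0.99 with more than 1000 genes, 0.93, 1.04 and 0.97 with the gate, 1.43, 1.38 and 1.33 without ribosomal and mitochondrial UMIs, 0.89, 0.83 and 0.73 with median-of-ratios scaling and 1.27, 1.21 and 1.24 with equal cells. With doublets kept, WT IgG and A159V anti-PD1 gave 1.10 and 1.07, and without cycling cells WT IgG and A159V IgG gave 1.0 and 1.07.

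Settings chosen after seeing the data were the unnamed cluster added to tumor-like cells (0.036 for A159V over WT IgG, with 2 members past 1.5-fold higher in place of 1), equal weights for the tumor-like clusters (-0.026, and -0.086 for A159V anti-PD1 over A159V IgG) and the counts of T-like, NK-like and tumor-to-macrophage members. Of these counts, members past 1.5-fold higher in T-like cells of WT anti-PD1 went from 1 to 0 with median-of-ratios scaling and with 5 CPM added, and in NK-like cells from 1 to 0 with that scaling and to 3 at a minimum of 5 CPM. Members lower in tumor-like than macrophage-like cells went from 1 to 3 with that scaling in each A159V library. Macrophage-like cells of WT anti-PD1 had 3 members past it higher in place of 5 with that scaling, and those of A159V anti-PD1 had 1 lower in place of 0 at 5 CPM. Of the 18 named member ratios past 1.5-fold, 48 of 54 alternatives, also added later, stayed past it in the same direction, and none turned.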

Other observations

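Regulators of mitochondrial biogenesis had a higher summed level in T-like cells of WT anti-PD1 than of WT IgG, whereas the summed OXPHOS level was lower. The median of all genes there was 0.23. It was 0.28 for genes with transcripts over 1000 bases and -0.66 for shorter ones. The part of transcript length in this contrast was not tested. Over the 9 listed genes, which include the transcription factor Nrf1, the summed ratio of WT anti-PD1 to WT IgG was 0.50 (0.39 to 0.61), with 3 of 7 measured genes past 1.5-fold higher, beside 22.0% of all genes, and none lower. In T-like cells of A159V the same ratio was 0.30 (0.14 to 0.46), with 1 of 5 past it higher (3.35% of all genes). Electron carriers, a list that includes cytochrome c, stood at -0.59 (-0.70 to -0.48) in T-like cells of WT, with 2 of 5 past it lower, beside 15.2% of all genes.

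Other assembly factors of the respiratory chain, which the choice by symbol leaves out, were nearer to 0 in those T-like cells, at -0.22 (-0.28 to -0.16) with 3 of 17 past it lower, near the background share of 15.2%. In tumor-like cells of A159V IgG over WT IgG they stood at 0.083, and the electron carriers at 0.23 with none of 6 past the fold. Over all genes there 4.13% lay past it higher and 3.62% lower.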
